A study of Mus musculus with 9 samples.

Results

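Messages of 10 genes of hepatic fatty acid uptake, desaturation and elongation were measured. They were chosen by name, with earlier results of these data known: Cd36, Fabp1, Fabp2, Fabp4, Fads1, Fads2, Elovl2, Elovl3, Elovl5 and Scd2. All 10 were among the 17846 genes listed for these livers, and all 10 passed the filter on low counts that left 13619 genes for testing. RNA was sequenced from the livers of 9 male wild-type mice (C57/BL in the labels, C57BL/6 by the study's account), 3 in each of 3 groups, with a separate library for each mouse. Control mice ate normal chow and were sedentary. NASH mice were sedentary and ate the Ath diet, an atherogenic chow with added cholesterol and cholate, for 20 weeks. NASH+Exercise mice ate the same diet and ran on a treadmill for the last 8 weeks, after 12 weeks of diet alone. All mice were fasted overnight before the liver was taken. The labels give no age, and by the study's account training began in adult mice. Exercise was given only together with the diet, so there is no group of trained mice on normal chow. Mice are named by the number in their label (Control 3, 4 and 29, NASH 5, 19 and 20, NASH+Exercise 8, 18 and 22). These numbers identify mice and pair none of them.

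Fatty acids enter hepatocytes with the help of membrane proteins such as CD36 and the FATP transporters, are carried in the cytosol by fatty acid binding proteins, and are activated to acyl-CoA before use. Stearoyl-CoA desaturases place the first double bond in saturated chains. The desaturases encoded by Fads1 and Fads2 work in turn with the elongases encoded by Elovl5 and Elovl2 to make arachidonic acid and docosahexaenoic acid from dietary linoleic and linolenic acid. Elovl3 acts on saturated and monounsaturated chains, and its hepatic message is known to be higher in male mice and to follow the time of day. Several of these genes are known targets of the nuclear receptor PPARα or of the lipogenic factor SREBP-1c.

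Total estimated counts were 20086004 to 22495449 per mouse. To compare mice, a gene's level is given in CPM (counts scaled to library size after TMM), and to compare genes it is given in TPM, which is per length. Calls required both an adjusted p under 0.05 and a log2 fold change beyond 1 in either direction (edgeR's quasi-likelihood test, Benjamini-Hochberg over 13619 genes). The sum of 6 hepatocyte markers ranged over 114515 to 131884 CPM in Control mice, 65481 to 92771 CPM in NASH mice and 70747 to 92274 CPM in NASH+Exercise mice, so hepatocyte messages were abundant in all 9. Sums of 6 macrophage markers were 44.1 to 83.6, 543 to 671 and 412 to 480 CPM in the same order. NASH+Exercise 18 differed in Elovl3, Elovl5 and clock genes, and NASH 19 in lipid-associated macrophage markers. Several results are given with and without these mice. In such bulk tissue, fewer cells of a type and less RNA per cell cannot be told apart.

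Promoter sequence is shown for 4 members that were lower in NASH than in Control mice, since members that moved together may be compared for motifs. Each line is the 250 bases before the annotated start, 5′ to 3′ on the strand of the gene, from RefSeq (GRCm38.p6), and capitals mark the motifs found. RefSeq windows matched 6 of the 10 members.
Fabp1: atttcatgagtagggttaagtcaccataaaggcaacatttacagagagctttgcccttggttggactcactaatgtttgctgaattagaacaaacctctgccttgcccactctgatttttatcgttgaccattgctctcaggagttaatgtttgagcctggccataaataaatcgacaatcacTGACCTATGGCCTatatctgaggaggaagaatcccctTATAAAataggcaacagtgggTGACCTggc
Elovl5: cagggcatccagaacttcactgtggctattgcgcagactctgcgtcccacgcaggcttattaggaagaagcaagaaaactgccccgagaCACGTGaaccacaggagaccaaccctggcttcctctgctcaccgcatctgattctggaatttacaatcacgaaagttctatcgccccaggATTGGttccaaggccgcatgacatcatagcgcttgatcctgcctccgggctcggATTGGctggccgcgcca
Elovl2: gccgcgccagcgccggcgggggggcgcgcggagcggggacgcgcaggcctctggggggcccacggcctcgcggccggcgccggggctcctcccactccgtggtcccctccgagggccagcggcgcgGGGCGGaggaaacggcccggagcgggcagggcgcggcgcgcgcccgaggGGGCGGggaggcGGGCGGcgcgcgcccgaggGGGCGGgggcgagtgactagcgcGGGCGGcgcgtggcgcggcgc
Fads2: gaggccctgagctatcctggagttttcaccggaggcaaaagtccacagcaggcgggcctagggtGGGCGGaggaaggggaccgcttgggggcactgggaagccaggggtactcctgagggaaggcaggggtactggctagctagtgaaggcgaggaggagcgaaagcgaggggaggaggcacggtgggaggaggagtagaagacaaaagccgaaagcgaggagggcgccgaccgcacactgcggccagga

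The Fabp1 window (chr6:71199629-71199878, plus strand) holds TGACCTATGGCCT at 67 to 55 bases before the start, a TATAAA at 30 to 25 bases and a further TGACCT at 9 to 4 bases. TGACCT is the reverse complement of AGGTCA, the hexamer that nuclear receptors bind, and 14% of 32851 mouse promoter windows hold it on either strand. A strict direct repeat of that hexamer with 1 base between (DR1) was in 0.0335% of windows and in none of the 6 members searched. The Fabp1 letters TGACCTATGGCCT, with any base allowed for the A between the hexamers, were searched after the sequence had been read and were in 0.0183% of windows. The Elovl5 window (chr9:77917115-77917364, plus strand) holds ATTGG, the reverse complement of CCAAT, at 71 to 67 and 17 to 13 bases before the start, and the E-box CACGTG at 161 to 156 bases. CCAAT was in 33.8% and CACGTG in 6.02% of windows. The Elovl2 window (chr13:41220404-41220653, minus strand) is 87.2% G or C with 5 copies of GGGCGG, a motif in 32.7% of windows. The Fads2 window (chr19:10101504-10101753, minus strand) holds 1 copy. The 4 windows have no motif in common, and none holds the sterol regulatory letters TCACNCCAC, which were in 1.05% of windows. All motifs were searched on both strands, overlapping hits were kept, and a match is a description and not a bound site.

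Compared with Control mice, NASH mice had higher Scd2 and Fabp4 and lower Fabp1, Elovl3 and Elovl5. These 5 of 10 members were called, where 18.3% of all genes tested were. Because the members were chosen with earlier results of these data known, such shares are a description only. Split by direction, 2 members were called higher (15.3% of all genes) and 3 lower (3.03% of all genes). Counted by adjusted p without the fold threshold, 7 members passed, Elovl2 and Fads2 in addition, where 35.6% of all genes did. The groups did not overlap in 8 members, against 49.6% of all genes. The median log2 fold change was -0.56 over the 10 members and 0.01 over all genes. It was -0.61 over the 6 hepatocyte markers (-1.20 to -0.31), and their part in the member differences was not tested.

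**Figure D1:**
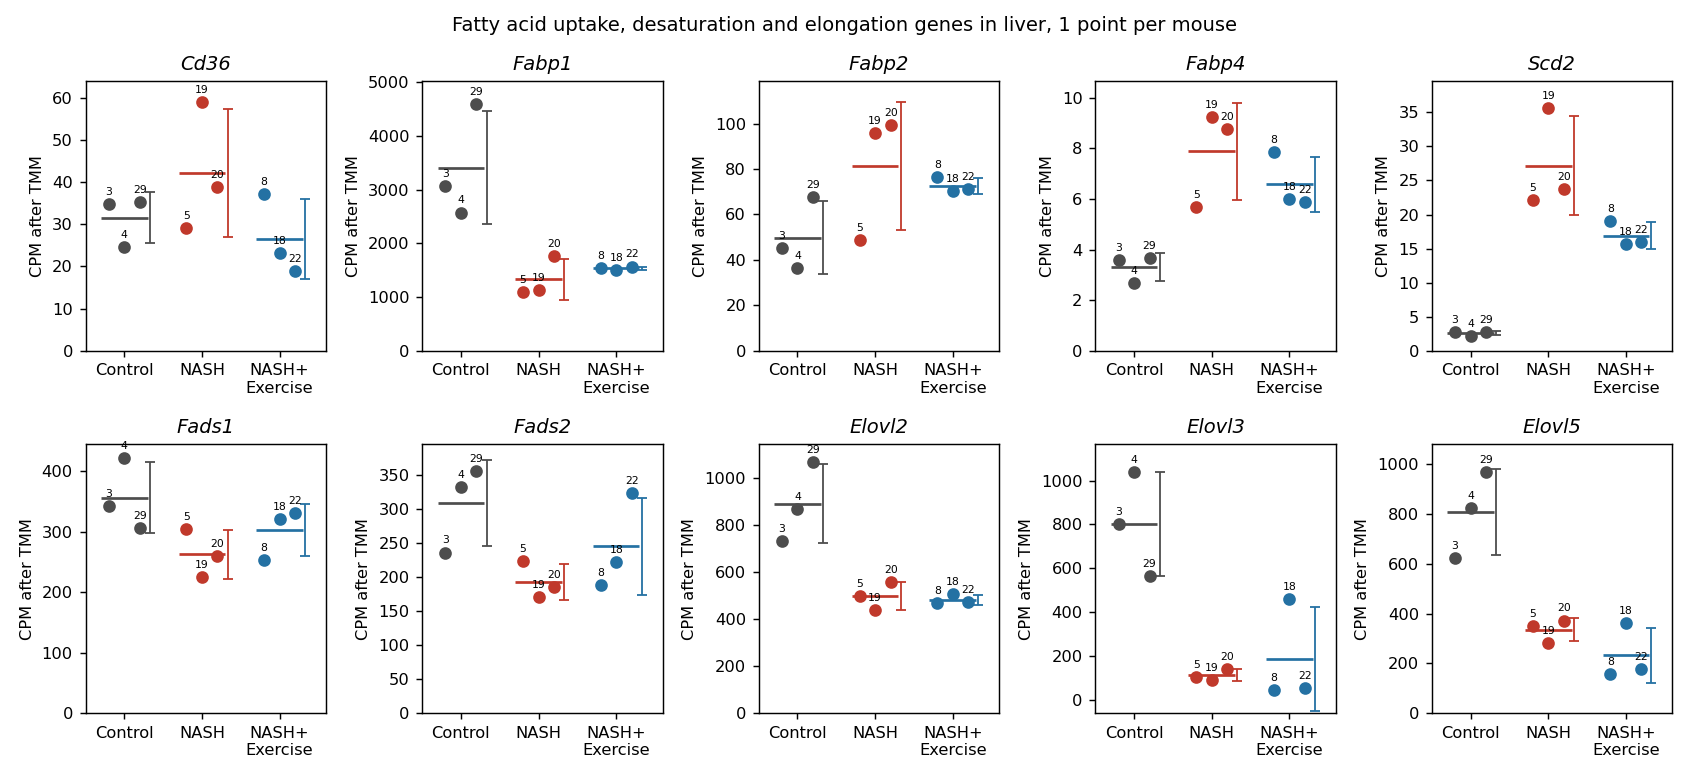
CPM after TMM of each of the 10 genes (vertical axis, from 0 except for Elovl3, where the SD bar reaches below 0) in each mouse (points, labelled by mouse number) by group, with the mean (line) and SD (bar at the right, n = 3). Scd2 lies at 2.22 to 2.74 CPM in Control and 22.2 to 35.6 in NASH, and Elovl3 of NASH+Exercise 18 stands at 462 CPM against 43.6 and 55.1 in the other mice of its group.

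Cd36 (Entrez Gene 12491, chr5:17781690-17888959, minus strand) encodes the scavenger receptor and fatty acid translocase. It measured 34.8, 24.6 and 35.4 CPM in Control mice and 29.2, 59.0 and 38.8 CPM in NASH mice. The groups overlapped, and NASH 19 was the highest of all 9 mice. Its log2 fold change was 0.42 (95% interval -0.25 to 1.09, adjusted p = 0.308), so a difference was not detected with 3 mice a group. NASH 19 also had the highest sum of 5 lipid-associated macrophage markers, 684 CPM against 226 and 269 in the other NASH mice and 44.5 to 54.3 in Control. Without that mouse the Cd36 difference was 0.08 (adjusted p = 0.871). CD36 is also made by macrophages, and the part of those cells in its level was not tested.

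Fabp1 (14080, chr6:71199879-71205034, plus strand) encodes the liver fatty acid binding protein, the main cytosolic carrier of fatty acids in hepatocytes. It measured 3074, 2575 and 4588 CPM in Control and 1092, 1125 and 1771 CPM in NASH mice. Every NASH mouse was below every Control mouse. The message fell by 1.36 on the log2 scale (SE 0.25, adjusted p = 0.00189), 2.57-fold lower in NASH. On log2 TPM, where the median of all genes itself moved by 0.35, the log2 fold change was -0.92 with an adjusted p of 0.0248, and the call was lost for its size alone. The hepatocyte markers moved the same way, with log2 fold changes of -1.20 to -0.31 and a median of -0.61 over 6 genes, and their part in the Fabp1 difference was not tested.

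Fabp2 (14079, chr3:122895072-122899506, plus strand) encodes the intestinal fatty acid binding protein, and its gene overlaps the antisense gene 4933405D12Rik. Whether the counting used strand is not stated, so reads of the overlap cannot be assigned to either gene. Fabp2 measured 45.3, 36.3 and 67.8 CPM in Control and 48.7, 95.7 and 99.4 CPM in NASH mice. NASH 5 lay among the Control mice and the other NASH mice above them. Its log2 fold change was 0.71 (SE 0.28, adjusted p = 0.0776). Scaling moved this gene across the threshold, with 1.04 (adjusted p = 0.0363) by library size alone and 1.11 (adjusted p = 0.0289) on log2 TPM. Enterocyte markers summed to at most 0.815 CPM in any mouse.

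Fabp4 (11770, chr3:10204342-10208616, minus strand) encodes the binding protein of adipocytes and macrophages. It measured 3.60, 2.67 and 3.67 CPM in Control and 5.69, 9.24 and 8.76 CPM in NASH mice. The groups did not overlap, and NASH 5 was the lowest of its group as it was for Fabp2 and Cd36. Fabp4 rose by 1.25 on the log2 scale (SE 0.23, adjusted p = 0.00211), 2.38-fold, and by 1.09 without NASH 19. Of the adipocyte markers, 3 of 5 were in the table, their sum was at most 0.708 CPM in any mouse, and Adipoq and Plin1 were at 0 in all NASH and NASH+Exercise mice. All 6 macrophage markers were called higher in NASH, with log2 fold changes of 2.38 to 3.97, and their part in the Fabp4 difference was not tested.

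Within the Fabp family Fabp1 made up nearly all of the message by TPM, but its share was lower in NASH. Of the summed TPM of 6 Fabp genes, Fabp1 held 99.1% ± 0.0691 in Control, 95.6% ± 1.48 in NASH mice and 96.3% ± 0.310 in NASH+Exercise mice (SD, n = 3 each). Fabp2 held 0.707% ± 0.0181, 2.89% ± 0.927 and 2.23% ± 0.111. The TPM ratio of Fabp1 to Fabp2 was 138, 145 and 138 in Control, 45.7, 24.0 and 36.3 in NASH, and 40.9, 43.9 and 45.0 in NASH+Exercise mice. Control mice thus stood above all 6 mice on the Ath diet, and a ratio within a library does not depend on how libraries are scaled. For other members of the family, the log2 fold change from Control to NASH was 1.48 for Fabp7 (adjusted p = 0.0240, called) and 1.77 for Fabp5 (SE 0.65, adjusted p = 0.0616).

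Scd2 (20250, chr19:44293676-44306864, plus strand) encodes a stearoyl-CoA desaturase that is abundant in brain and in developing tissues, whereas Scd1 is the main form of adult liver. It measured 2.74, 2.22 and 2.70 CPM in Control and 22.2, 35.6 and 23.7 CPM in NASH mice. The lowest NASH mouse was well above the highest Control mouse. Scd2 rose by 3.41 on the log2 scale (SE 0.21, adjusted p = 4.55e-06), 10.6-fold and the largest change of the 10 members in this fit. Scd1, its neighbour in the family, rose by 1.18 (SE 0.26, adjusted p = 0.00551) from a mean of 3665 to 8278 CPM. By TPM, Scd2 was 0.0629% ± 0.00965 of the 4 Scd genes in Control mice, 0.314% ± 0.148 in NASH mice and 0.171% ± 0.0704 in NASH+Exercise mice, so most Scd message was Scd1 in every mouse. Of the 5461 stretches of 50 bases in Scd2 transcripts, 205 (3.75%) also occur in Scd1, Scd3 or Scd4, and a part of the Scd2 count may come from reads shared with Scd1. The Scd1 to Scd2 TPM ratio was 1611 ± 227 in Control, 371 ± 177 in NASH mice and 646 ± 226 in NASH+Exercise mice. The part of shared reads in the Scd2 count was not tested. Among NASH mice Scd2 was highest in NASH 19, the mouse with the highest lipid-associated macrophage sum and with the lowest hepatocyte sum, 65481 CPM. Without NASH 19 the log2 fold change of Scd2 was 3.13 (adjusted p = 8.8e-06). What part other cell types had in the Scd2 difference was not tested.

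Fads1 (76267, chr19:10182877-10196874, plus strand) and Fads2 (56473, chr19:10062765-10101503, minus strand) are neighbours on chromosome 19 and encode the delta-5 and delta-6 desaturases. Fads1 measured 343, 422 and 306 CPM in Control and 305, 225 and 260 CPM in NASH mice. Its groups did not overlap, but by a narrow margin between Control 29 (306) and NASH 5 (305). For Fads1 the difference was -0.44 on the log2 scale (SE 0.17, adjusted p = 0.0713), and on log2 TPM it was 0.00. Fads2 measured 236, 332 and 355 CPM in Control and 223, 171 and 186 CPM in NASH mice. All NASH mice were lower, again by a narrow margin between Control 3 and NASH 5. For Fads2 it was -0.67 (SE 0.22, adjusted p = 0.0369), short of the fold threshold. Over the 15 alternatives the Fads2 value lay between -0.83 and -0.22, with an adjusted p of up to 0.367. By TPM the Fads2 groups overlapped, at 236, 283 and 399 in Control and 290, 245 and 235 in NASH mice. Over the 9 mice Fads1 and Fads2 lay closest of all member pairs, with a root mean square difference of 0.24 in centred log2 CPM. Their TPM ratio, Fads2 over Fads1, was 1.98 ± 0.567 in Control, 1.65 ± 0.0498 in NASH mice and 1.80 ± 0.348 in NASH+Exercise mice. Fads3 was lower-expressed, with 9.04 ± 5.16 CPM in Control and 6.74 ± 1.48 CPM in NASH (adjusted p = 0.396). Fads6 had a log2 fold change of 0.04 (adjusted p = 0.828).

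Elovl5 (68801, chr9:77917365-77984519, plus strand) encodes the elongase of shorter polyunsaturated chains. It measured 624, 823 and 967 CPM in Control and 351, 283 and 372 CPM in NASH mice. Every NASH mouse was lower than every Control mouse. Elovl5 fell by 1.26 on the log2 scale (SE 0.30, adjusted p = 0.00901), 2.40-fold lower. By library size alone the log2 fold change was -0.93 (adjusted p = 0.0347) and on log2 TPM -0.81 (adjusted p = 0.0485), which ended the call for its size alone. Library size alone moved the median of all genes from 0.01 to 0.36.

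Elovl2 (54326, chr13:41182382-41220403, minus strand) encodes the elongase that takes polyunsaturated chains on towards docosahexaenoic acid. It measured 733, 868 and 1068 CPM in Control and 498, 438 and 556 CPM in NASH mice, with no overlap. On the log2 scale the difference was -0.84 (SE 0.17, adjusted p = 0.00277), 1.79-fold lower and short of the fold threshold. Over the 15 alternatives it lay between -0.97 and -0.39, with an adjusted p of up to 0.104. Elovl2 and Fabp1 were alike across the 9 mice, with a root mean square difference of 0.29. The TPM ratio of Elovl2 to Elovl5 was 0.841, 0.758 and 0.793 in Control and 1.02, 1.11 and 1.07 in NASH mice. In Control Elovl5 thus exceeded Elovl2 in all 3 mice, and in NASH Elovl2 exceeded Elovl5 in all 3.

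Elovl3 (12686, chr19:46131897-46135694, plus strand) encodes the elongase of saturated and monounsaturated very long chains, and its gene overlaps Pitx3 on the opposite strand. It measured 802, 1037 and 565 CPM in Control and 104, 92.6 and 143 CPM in NASH mice. The lowest Control mouse was above all NASH mice by several fold. Elovl3 fell by 2.82 on the log2 scale (SE 0.81, interval -4.65 to -0.99, adjusted p = 0.0236), 7.07-fold lower. The adjusted p lost the threshold when Control 3 (0.0508), Control 4 (0.0871), NASH 5 (0.0665), NASH 19 (0.0951) or NASH 20 (0.0545) was left out, and with no filter on low counts (0.0715). The log2 fold change stayed between -3.07 and -2.33 over all 15 alternatives. Without NASH+Exercise 18, whose Elovl3 stood apart from its group and which shares the fit, the adjusted p was 6.76e-05.

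**Figure D2:**
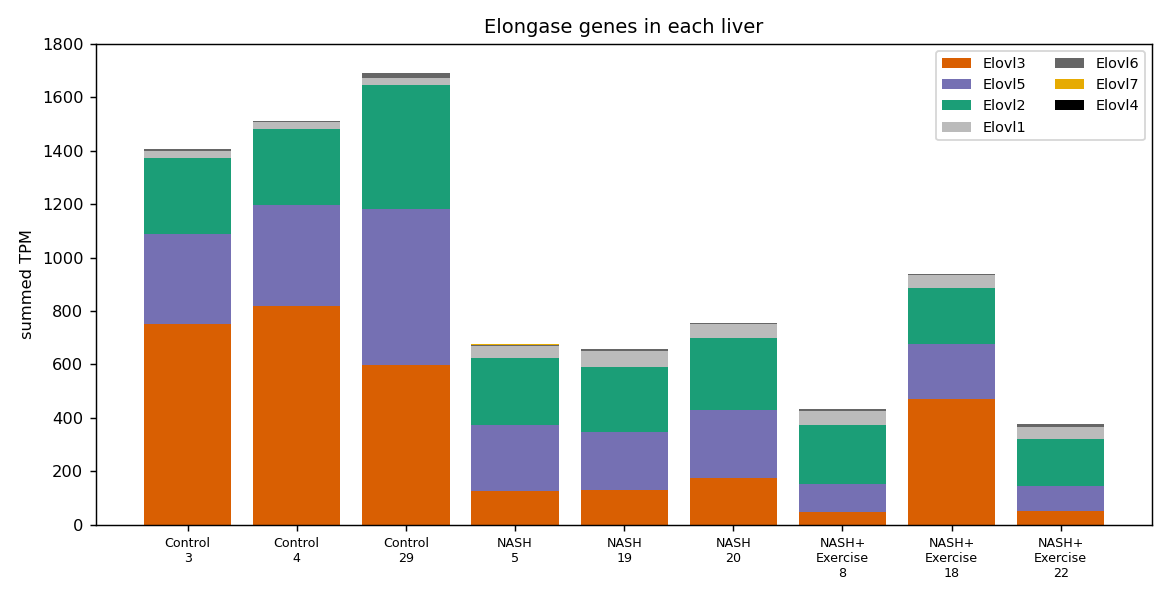
Summed TPM of the 7 Elovl genes (vertical axis, from 0) in each of the 9 mice, stacked by gene. The stack was 1405 to 1691 TPM in Control, 659 to 756 in NASH mice, and 433, 938 and 378 in NASH+Exercise mice, and the Elovl3 block of NASH+Exercise 18 is the tallest outside the Control group.

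Summed elongase TPM was lower in every NASH mouse than in every Control mouse, and so was the Elovl3 share of it. The summed TPM of 7 Elovl genes was 1537 ± 145 in Control and 697 ± 52.2 in NASH mice. Elovl3 held 53.5, 54.1 and 35.3% of that sum in Control and 18.6, 19.5 and 23.3% in NASH mice. Elovl2 held 22.2% ± 4.62 in Control and 36.7% ± 0.636 in NASH, and Elovl5 held 27.8% ± 5.90 and 34.4% ± 1.76. Both mean shares were higher in NASH although both messages were lower, with log2 fold changes of -0.84 for Elovl2 and -1.26 for Elovl5. The Elovl5 shares overlapped, at 24, 24.9 and 34.6% in Control and 36.5, 33.3 and 33.5% in NASH mice. Elovl1, an elongase of saturated very long chains found in most tissues, was higher in both share and level. Its share was 1.71% ± 0.116 in Control and 7.52% ± 1.28 in NASH, and its log2 fold change was 0.56 (SE 0.12, adjusted p = 0.00404). Elovl6, which extends palmitate, was lower by 1.30 on the log2 scale (SE 0.44, adjusted p = 0.0466), and Elovl7 was higher by 1.98 (adjusted p = 0.0108).

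By TPM the order of the 10 genes differed between Control and NASH. In Control it ran from Fabp1 (11212 ± 4913 TPM) through Elovl3 (722 ± 114), Elovl5 (433 ± 134), Elovl2 (345 ± 104), Fads2 (306 ± 84.1), Fads1 (155 ± 4.03), Fabp2 (80.4 ± 36.7), Cd36 (17.0 ± 5.06) and Fabp4 (8.19 ± 2.38) to Scd2 (0.700 ± 0.161). Among neighbours in this order, Elovl5 overlapped Elovl2, and Elovl2 overlapped Fads2. In NASH Elovl3 (143 ± 28.2) stood in rank 7 and overlapped Fads1 (156 ± 17.5). There Fads2 (257 ± 29.2), Elovl2 (255 ± 14.8) and Elovl5 (240 ± 17.8) overlapped in turn, and Scd2 (9.95 ± 3.41) was still last. Cd36 (30.2 ± 12.7) and Fabp4 (25.9 ± 7.13) overlapped in NASH but not in Control.

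Other genes of the same pathways were counted from lists by role, which were also chosen with earlier results of these data known. Of 60 tested, 13 were called (21.7%, against 18.3% of all genes), 7 higher and 6 lower (15.3% and 3.03% of all genes). Of 13 tested genes of uptake and transport, 2 were called higher and 2 lower in NASH mice, and the list's median was -0.47 on the log2 scale. The 6 hepatocyte markers had a median of -0.61. Lpl, the lipase that frees fatty acids from circulating triglyceride, rose by 4.40 (SE 0.43, adjusted p = 6.81e-05), from 10.9, 7.34 and 17.5 CPM in Control to 221, 371 and 165 CPM. Slc27a1 and Slc27a2, which encode FATP1 and FATP2, fell by 1.16 and 1.11. Acsl1, the main long-chain acyl-CoA synthetase of liver, was the 1 of 5 synthetases called. It measured 2956, 3124 and 3275 CPM in Control and 537, 448 and 723 CPM in NASH mice, and fell by 2.45 (SE 0.23, adjusted p = 2.74e-05).

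Of 10 further genes of desaturation, Scd1 and Degs2 were called higher and 0 lower, with a median of 0.02. Over all genes 15.3% were called higher and 3.03% lower. Of 9 further genes of elongation, Elovl7 and Hacd4 were called higher and Elovl6 lower, with a median of -0.50. By the adjusted p alone 6 of these 9 were lower, against 1960 of all 13619 genes. Among the 6 were Hacd3 and Tecr, which carry out later steps of the elongation cycle, at -0.89 and -0.68. Of the genes that handle polyunsaturated chains, 7 were reported, and all 7 were lower in value, with a median of -0.69. Lower values were also found for 6672 of all 13619 genes and for all 6 hepatocyte markers (median -0.61). Hsd17b4, which acts in the peroxisomal shortening step that ends docosahexaenoic acid synthesis, was the 1 of the 7 called and fell by 1.15. Mfsd2a, a carrier of lysophospholipids with such chains, had a log2 fold change of -2.36 that missed the threshold (SE 0.85, adjusted p = 0.0572).

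Of 16 regulators, 1 was called higher and 1 lower, where 15.3% and 3.03% of all genes were. Srebf1, which encodes SREBP-1, rose by 1.93 (SE 0.19, adjusted p = 3.41e-05) from 44.8, 59.3 and 59.6 CPM to 215, 205 and 204 CPM, and Nr1i3, the nuclear receptor CAR, fell by 1.01 (adjusted p = 0.00506). Ppara measured 398, 423 and 366 CPM in Control and 204, 171 and 262 CPM in NASH mice, a log2 fold change of -0.90 (SE 0.17, adjusted p = 0.00206) short of the fold threshold. Of the 13 calls, 6 held under all 15 alternatives (Lpl, Acsl1, Degs2, Elovl7, Hacd4 and Srebf1). Elovl6 lost its call in 9 of them and stood at -0.76 (adjusted p = 0.150) without Control 29. Scd1 stood at 0.91 and Slc27a1 at -0.91 without NASH 5, and Fabp7 lost its call without Control 3, NASH 19 or NASH 20. Slc27a1, Slc27a2, Hsd17b4 and Nr1i3 lost theirs by library size alone and on log2 TPM. Nr1i3 also lost its call without Control 3, Control 4, NASH 5 or NASH 19. Elovl7 stood at 1.39 and Lpl at 3.99 without NASH 19, and Degs2 stood at 3.17 without Control 4. Scd1 and Scd2 were called higher beside Srebf1, and Elovl5 and Elovl6 were called lower.

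**Figure D3:**
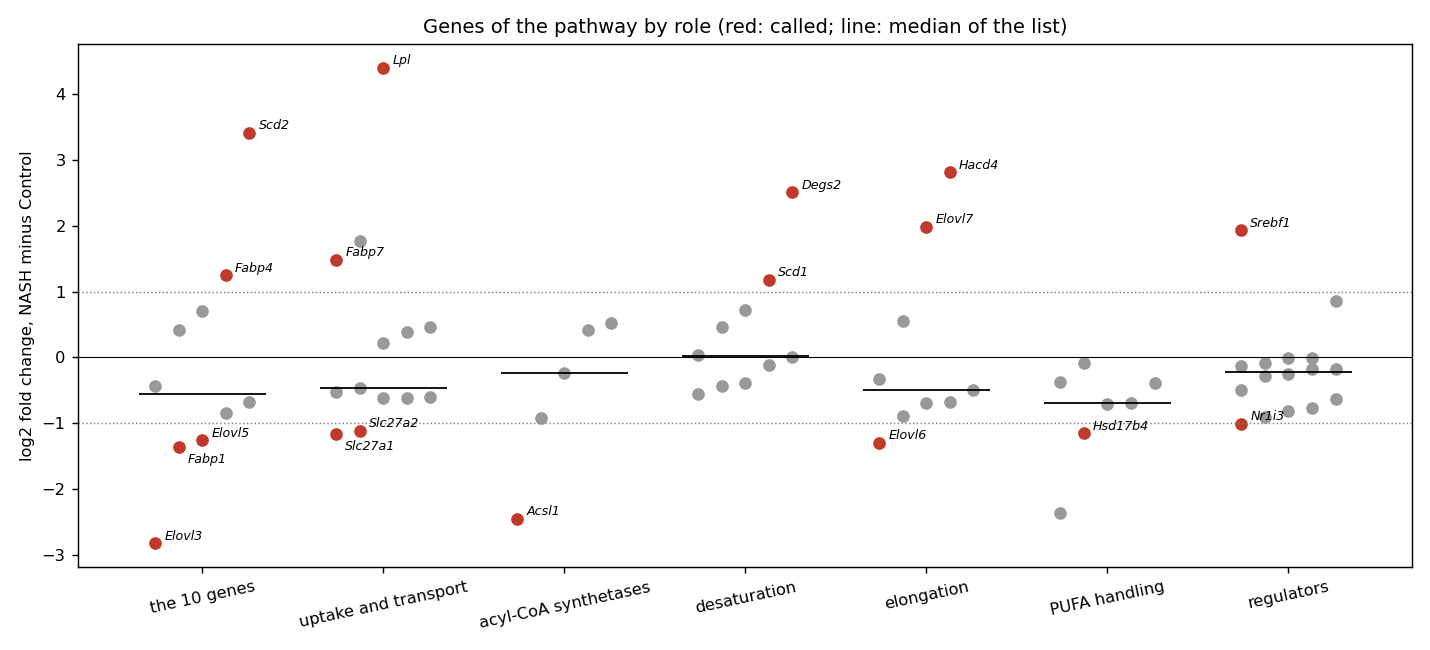
Log2 fold change from Control to NASH (vertical axis) of the 10 genes and of other pathway genes by role (horizontal axis), 1 point a gene, red for called genes, with the median of each list (line). Lpl at 4.40 and Scd2 at 3.41 are the highest points, and Elovl3 at -2.82 and Acsl1 at -2.45 the lowest.

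The next comparison asks whether exercise changed these genes in mice kept on the Ath diet. Between NASH+Exercise and NASH mice 0 of 10 members were called, where 0.14% of all genes tested (19 genes) were. By the adjusted p alone it was also 0 members, against 0.162% of all genes. DESeq2 on the 6 mice also called 0 members, where it called 204 genes or 1.52% of those with an adjusted p. At an unadjusted p under 0.05 there were 2 members, Cd36 and Scd2, where 15.3% of all genes were. The groups did not overlap in 1 member, Scd2, against 24.1% of all genes. The median log2 fold change of the members was -0.11, and that of all genes was -0.03.

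Scd2 measured 19.1, 15.7 and 15.9 CPM in NASH+Exercise mice, all below the 22.2 to 35.6 CPM of NASH mice. Its log2 fold change was -0.69 (interval -1.09 to -0.28, unadjusted p = 0.00357, adjusted p = 0.151), and the exact two-sided permutation test gave 0.1, the smallest p that 3 mice against 3 allow. Cd36 measured 37.1, 23.3 and 19 CPM in NASH+Exercise mice. NASH+Exercise 18 and 22 were below all NASH mice, and NASH+Exercise 8 lay among them. Its log2 fold change was -0.68 (interval -1.35 to -0.00, unadjusted p = 0.0489, adjusted p = 0.324). Without NASH 19, the highest NASH mouse in both genes, the differences were -0.42 for Scd2 (adjusted p = 0.415) and -0.34 for Cd36 (adjusted p = 0.723). Lipid-associated macrophage markers were lower in value beside both genes, with a sum of 141 to 231 CPM against 226 to 684 in NASH mice and 0 of 5 genes called. Their part in these differences was not tested.

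For Fabp1 and Fabp2 the exercised mice were close to one another by CPM, unlike for Fabp5 at 27.1, 22.2 and 46.6 CPM. Fabp1 measured 1534, 1509 and 1569 CPM, which is inside the range of the NASH mice, and its log2 fold change was 0.21 (interval -0.33 to 0.75, adjusted p = 0.736), or -0.05 on log2 TPM. Fabp2 measured 76.4, 70.1 and 71.1 CPM (-0.16, interval -0.79 to 0.46, and 0.01 without NASH 20). Fabp4 measured 7.86, 6 and 5.90 CPM (-0.26, interval -0.76 to 0.23). The ratio of the highest to the lowest mouse was 1.04 for Fabp1 and 1.09 for Fabp2 in this group, against 1.62 and 2.04 in NASH. Elovl2 was as close in this group, at 1.08. By TPM the exercised mice spread more, at 6030, 5196 and 4927 for Fabp1 and 147, 118 and 109 for Fabp2.

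Fads1 and Fads2 gave small positive differences that did not pass, while the list of further desaturation genes had a median of 0.00. Fads1 measured 254, 322 and 332 CPM (0.20, interval -0.18 to 0.59, adjusted p = 0.621), and by library size alone and on log2 TPM the sign turned, to -0.00 and -0.10. Fads2 measured 188, 222 and 324 CPM (0.34, interval -0.15 to 0.83, adjusted p = 0.493). In both genes NASH+Exercise 8 was lowest and NASH+Exercise 22 highest.

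Elovl2 measured 467, 506 and 472 CPM, close to the 438 to 556 CPM of NASH mice. Its log2 fold change was -0.05 with an interval of -0.41 to 0.32, and 0.00 in DESeq2. Elovl5 measured 158, 361 and 178 CPM. NASH+Exercise 8 and 22 were below all NASH mice, and NASH+Exercise 18 lay among the NASH mice. The log2 fold change was -0.53 (interval -1.19 to 0.13, adjusted p = 0.428), and -0.99 (adjusted p = 0.235) without NASH+Exercise 18.

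Elovl3 measured 43.6, 462 and 55.1 CPM in NASH+Exercise mice. Its value in NASH+Exercise 18 was 10.6 times that in NASH+Exercise 8, the widest spread of any member in any group. Its log2 fold change was 0.72 (SE 0.77, adjusted p = 0.706), or -0.42 on log2 TPM, and 1 mouse set its sign. Without NASH+Exercise 18 it was -1.20 (adjusted p = 0.251), and the Elovl3 share of the Elovl sum was 12.4% in place of 24.9% ± 21.8. The Elovl2 share was 48.9% without that mouse and 40.0% ± 15.5 with it.

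NASH+Exercise 18 also stood apart from the other mice of its group in genes of the circadian clock, which were looked at after the Elovl3 values were seen. Arntl, the activator BMAL1, was 29.6 CPM in that mouse and 6.98 and 3.80 CPM in NASH+Exercise 8 and 22. Nr1d1, the repressor REV-ERBα, was 6.47 CPM against 102 and 82.0 CPM, and Dbp, an output gene of the clock, was 2.03 CPM against 82.5 and 58.0 CPM. Per1 did not stand apart, at 20.9 CPM against 13.4 and 60.6 CPM. Insig2, a retention factor of SREBP processing, was 289 CPM against 149 and 117 CPM. In Control mice Elovl3 was lowest in Control 29, where Nr1d1 was 97.4 CPM and Arntl 18.5 CPM, against 24.9 and 34.5 CPM of Nr1d1 and 32.1 and 37.8 CPM of Arntl in Control 3 and 4. In NASH mice the order was not kept, since Elovl3 was highest in NASH 20, where Nr1d1 was also highest at 124 CPM and Arntl lowest at 9.90 CPM. Some of the clock genes did not overlap between Control and NASH mice, and 49.6% of all genes tested did not. Per2 was 8.16, 8.06 and 9.13 CPM in Control and 14.6, 25.7 and 16.8 CPM in NASH mice. Per3 was 1.66, 1.11 and 2.35 CPM against 5.11, 10.7 and 10.6 CPM. Tef did not overlap either, nor did Arntl, by a narrow margin (18.5 CPM in Control 29, 18 in NASH 5). The other clock genes measured overlapped. The labels give no time of day at which livers were taken. The part of the clock genes in the Elovl3 values, within groups or between Control and NASH, was not tested.

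**Figure D4:**
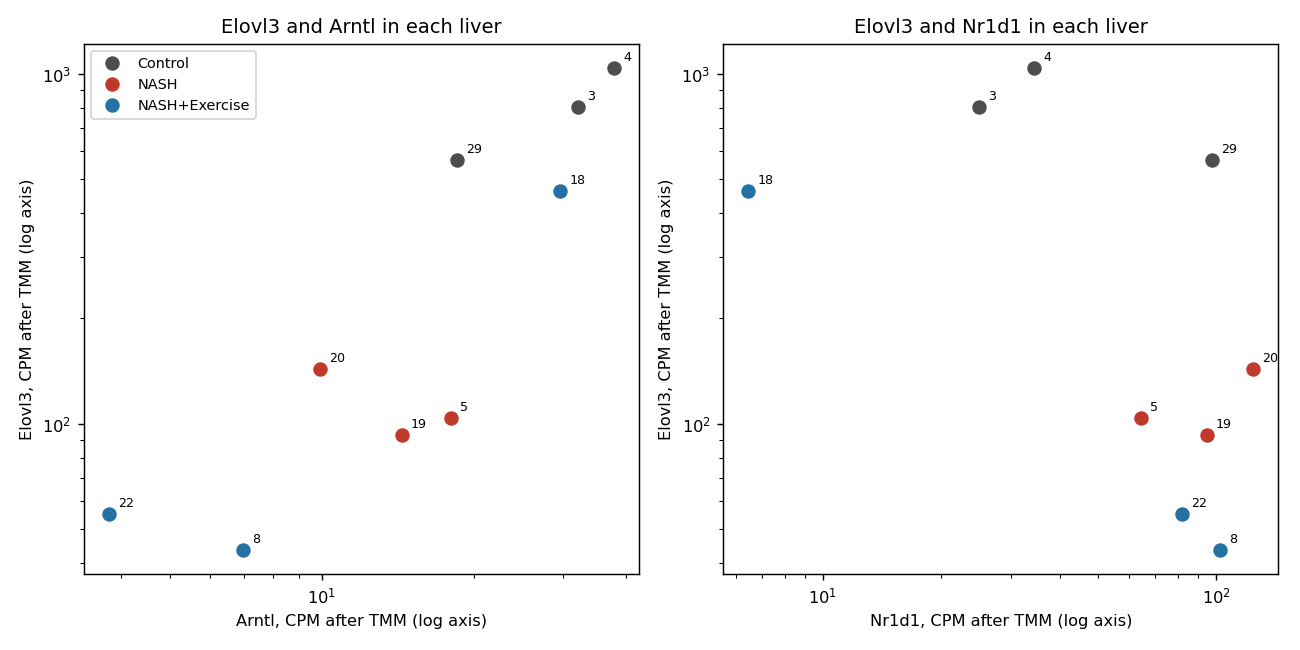
Elovl3 (vertical log axis, CPM after TMM) against Arntl (left) and Nr1d1 (right, both horizontal log axes, CPM after TMM) in each of the 9 mice, coloured by group and labelled by mouse number. NASH+Exercise 18 lies near the Control mice in Elovl3 and Arntl (462 and 29.6 CPM) and has the lowest Nr1d1 of all mice, 6.47 CPM.

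Of the other pathway genes, 0 were called in any of the 6 lists between NASH+Exercise and NASH mice, and list medians lay between 0.00 and 0.21. Srebf1 came nearest, with 312, 313 and 468 CPM in NASH+Exercise mice, all above NASH, and a log2 fold change of 0.81 (unadjusted p = 0.000989, adjusted p = 0.122). Lpl measured 150, 161 and 85.7 CPM, all below NASH (-0.93, unadjusted p = 0.0333, adjusted p = 0.281). Scd1 (0.19, adjusted p = 0.777) and Acsl1 (0.01, adjusted p = 0.988) differed by less than the spread between mice.

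The same NASH+Exercise mice were then set against Control. In them 3 of 10 members were called, Scd2 higher and Fabp1 and Elovl5 lower, where 13.5% of all genes tested were (10.4% higher and 3.07% lower). By the adjusted p alone 5 members passed, Fabp4 and Elovl2 in addition, where 25.1% of all genes did. The groups did not overlap in 7 members, Fabp2 and Elovl3 among them, against 38.6% of all genes. This comparison and the one before use the same exercised mice, and it shares the Control mice with the first.

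Scd2 was 6.59-fold higher in NASH+Exercise than in Control mice (log2 2.72, SE 0.21, adjusted p = 1.93e-05), beside 10.6-fold in NASH. Elovl5 fell by 1.79 (SE 0.31, adjusted p = 0.00201), beside -1.26 in NASH, and by 2.26 (adjusted p = 0.000222) without NASH+Exercise 18. Fabp1 fell by 1.15 (SE 0.25, adjusted p = 0.00659), beside -1.36 in NASH, and without Control 29 its log2 fold change was -0.90 and no longer past the fold threshold. Elovl2 stood at -0.89 (adjusted p = 0.00292) and Fabp4 at 0.99 (adjusted p = 0.0110). Leaving out Control 3 carried both over the fold threshold, at -1.01 and 1.05, and made 5 members called. Elovl3 was lower in all 3 exercised mice than in all Control mice, but its log2 fold change of -2.10 (SE 0.79) missed the threshold with an adjusted p of 0.0844. Without NASH+Exercise 18 it was -4.02 (adjusted p = 8.28e-05), and the members called were again 5, with Fabp4 and Elovl3 in addition. Cd36 (-0.25), Fads1 (-0.24), Fads2 (-0.33) and Fabp2 (0.54) did not pass, with adjusted p from 0.198 to 0.596.

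**Figure D5:**
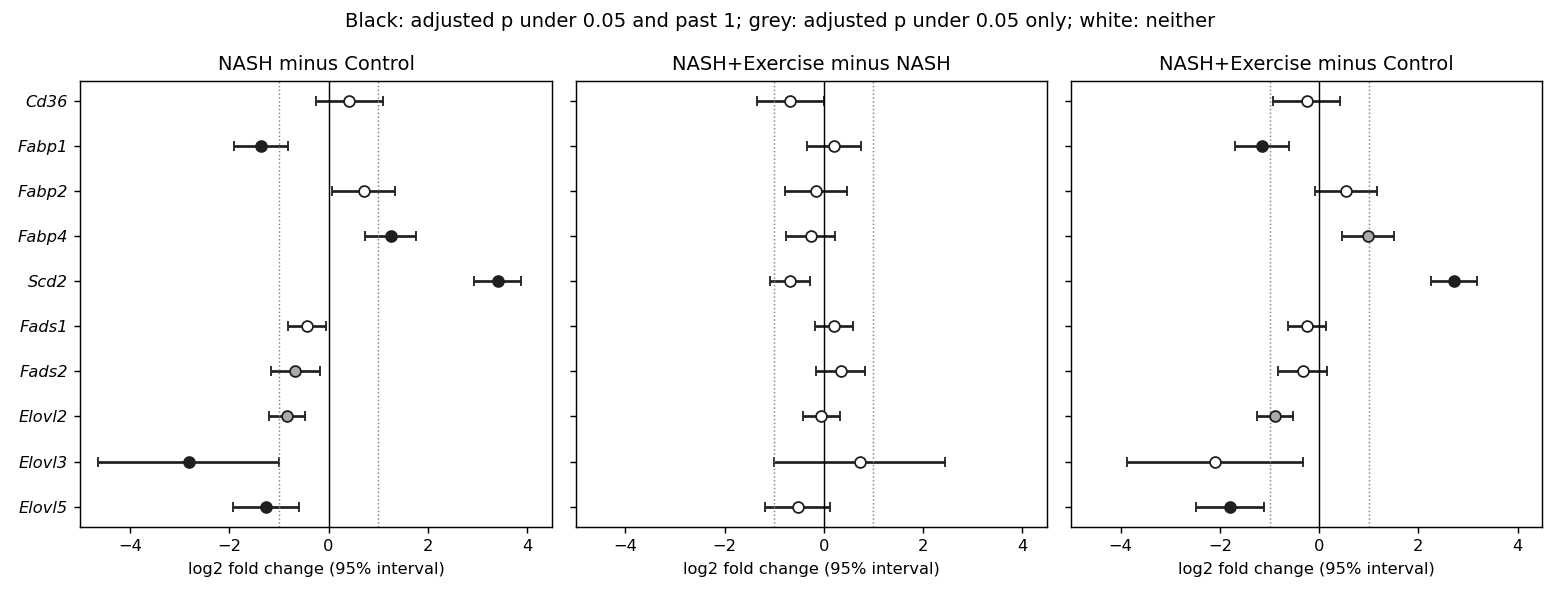
Log2 fold change (horizontal axis) with its 95% interval for the 10 genes in the 3 comparisons, black for called genes, grey for those past the adjusted p alone and white for the rest. In the middle panel all 10 points are white, and the widest interval is that of Elovl3, around 0.72.

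Against Control 12 of the 60 pathway genes tested were called (20%, against 13.5% of all genes). Of 13 genes of uptake and transport, Fabp5 (2.24) and Lpl (3.47) were higher and Slc27a1 (-1.88) lower, Acsl1 was lower (-2.44), and Scd1 (1.36) and Degs2 (1.60) were higher. Among the elongation genes Hacd4 was higher (2.09), and among the genes handling polyunsaturated chains Mfsd2a (-2.99, SE 0.88) was lower. Srebf1 stood at 2.74 (adjusted p = 1.2e-05), and Insig2 (-1.10), Nr1i2 (-1.01) and Nr1i3 (-1.13) were lower. Of these 12 calls, 6 held under all 15 alternatives (Slc27a1, Lpl, Acsl1, Scd1, Hacd4 and Srebf1). Fabp5 measured 1.66, 3.61 and 14.8 CPM in Control mice, and its log2 fold change was 3.58 without Control 29. Its call was lost without Control 3 or 4, NASH 19 or 20 or NASH+Exercise 8 or 22. The Fabp5 call was also lost in DESeq2 (adjusted p = 0.0648), in edgeR on the 6 mice (0.056) and with no filter (0.0996). Mfsd2a measured 10.1, 4.96 and 64.9 CPM in NASH+Exercise mice, and its log2 fold change was -4.81 without NASH+Exercise 22. Its call was lost without any 1 Control mouse, NASH 19 or NASH+Exercise 8 or 18. The Mfsd2a call was also lost in edgeR on the 6 mice (adjusted p = 0.0503) and with no filter (0.107). Degs2 stood at 2.30 without Control 4 and lost its call without Control 3 or 29 or NASH+Exercise 8 or 18 and on log2 TPM. Insig2 lost its call without NASH+Exercise 8 or 22 and stood at -1.58 without NASH+Exercise 18. Nr1i2 lost its call without NASH+Exercise 8 or 18. By library size alone Insig2 (-0.95), Nr1i2 (-0.88) and Nr1i3 (-0.96) lost their calls. Nr1i2 also lost its call on log2 TPM (-0.89) and in edgeR on the 6 mice (-0.98). In NASH+Exercise mice the levels by TPM ran from Fabp1 (5384 ± 575) and Fads2 (260 ± 47.8) to Fabp4 (17.7 ± 5.02), Cd36 (15.7 ± 7.39) and Scd2 (5.02 ± 1.14). Between them lay Elovl2, Elovl3, Fads1, Elovl5 and Fabp2, in that order, and each overlapped its neighbour among these. The place of Elovl3 (190 TPM) and Elovl5 (135 TPM) rested on NASH+Exercise 18. Without that mouse the order ran Elovl2, Fads1, Fabp2, Elovl5 (98.5 TPM) and Elovl3 (49.9 TPM), which put Elovl3 in rank 7 in place of 4.

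Over all 9 mice Elovl3 and Scd2 lay farthest from the other members. Each gene was centred on its mean log2 CPM, and the root mean square difference between each pair was taken as a measure of likeness. Genes were not scaled, so the measure depends on the size of a gene's differences as well as on their direction. Elovl3 and Scd2 had the largest log2 fold changes of the members between NASH and Control (-2.82 and 3.41). Fabp2 and Fabp4 were alike at 0.29, and Cd36 was nearest to Fabp2 at 0.47. Elovl5 was nearest to Elovl2 at 0.50 and Elovl3 nearest to Elovl5 at 0.93. Scd2 was nearest to Fabp4 at 0.93, and the pair least alike was Elovl3 and Scd2 at 2.95. Without NASH+Exercise 18 these nearest members were the same, Elovl3 was at 0.86 from Elovl5, and the least alike pair was at 3.12. By position, 4 of the 10 genes (Fads1, Fads2, Scd2 and Elovl3) are on chromosome 19.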

How the data were processed

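The authors sequenced mRNA libraries from 9 livers and deposited, per gene and mouse, an estimated count that is not normalized (29 to 32.8% of values not whole). The deposited TPM values, per length and summing to the same total in each library, served for levels between genes, family shares and 1 alternative. FPKM values deposited by the authors served only to compare files, in which 0 of 428304 values differed. The submitters' notes name HISAT2 2.1.0, Bowtie2 2.2.5, RSEM 1.2.8 and GRCm38.p6, and the annotation, strand setting and reads shared between genes are not given in the sources used here. Symbols came from RefSeq for 17728 of 17846 identifiers.

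Counts were rounded, filtered (filterByExpr, at least 10 counts, total 15) and scaled by TMM (factors 0.8 to 1.23). All 9 mice entered 1 edgeR 4.0.16 quasi-likelihood fit in R 4.3.3, with group as the only term, 6 residual degrees of freedom and Benjamini-Hochberg adjustment over 13619 genes. Calls used the study's thresholds, 0.05 for the adjusted p and 1 for the log2 fold change in either direction. The authors used DESeq2, which (1.42.0) was an alternative. Others were edgeR on the 6 mice compared, limma 3.58.1 on log2(TPM + 1), other scalings, no filter, and each mouse left out. The test was checked on counts simulated with changes as likely up as down, a setting that does not check the scaling. P-values judge a group difference against the spread between these mice, which were separate animals, and their number limits precision. Exact permutation tests were two-sided.

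The 10 members and all lists were chosen with earlier results of these data known. Every member is named, and of the other genes those of the Elovl, Fabp, Fads and Scd families that passed the filter, up to 2 called genes per list and direction, and regulators with any call. Clock genes and some further genes with values were added after values were seen, as were the alternatives for called pathway genes and the order and likeness without NASH+Exercise 18. A listed gene is not reported here, and the counts and median of its list leave it out.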

Additional observations from a re-analysis of the deposited data

How the results depend on the processing

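No paired analysis was possible because the groups share no mouse numbers. Over 15 alternatives per comparison, 138 of 150 member values against Control kept direction and call in NASH, 142 of 150 in NASH+Exercise against NASH and 138 of 150 in NASH+Exercise against Control. The members called were 4 to 5, 0 and 3 to 5. For NASH+Exercise against Control, leaving out 1 mouse gave 3 to 5 members. Genes called over the whole table between NASH+Exercise and NASH, 19 in edgeR, were 204 by DESeq2, 77 by limma on log2 TPM and 0 to 34 with 1 mouse left out (0 without NASH 20 or NASH+Exercise 18, where 1577 and 1432 genes had an unadjusted p below 0.05). Between NASH+Exercise and Control limma on log2 TPM gave 1073 genes in place of 1836. The sign turned for Fads1 in NASH against Control on log2 TPM (0.00). In NASH+Exercise against NASH it turned on log2 TPM for Fabp1 (-0.05), Fads1 (-0.10) and Elovl3 (-0.42), by library size alone for Fads1 (-0.00), in DESeq2 for Elovl2 (0.00), without NASH 20 for Fabp2 (0.01) and Elovl2 (0.04), and without NASH+Exercise 18 for Elovl3 (-1.20). With each mouse left out, these 3 ranged from -0.42 to 0.01, -0.11 to 0.04 and -1.20 to 1.19. None of these values passed the threshold, and DESeq2 gave no p for Elovl3 there. The cause was not tested. Shares by estimated count do not divide by length. They were 34.6 and 49.1% for Elovl2, 31.2 and 33.1% for Elovl5 and 31.4 and 11.1% for Elovl3 in Control and NASH. For Fabp1 they were 98.3, 91.8 and 93.1%, and for Fabp2 1.43, 5.65 and 4.39%, in Control, NASH and NASH+Exercise. For Fabp4 they were 0.0985% in Control and 0.399% in NASH+Exercise. On median shifts, library size alone moved the median of all genes to 0.36, -0.23 and 0.15 in the 3 comparisons, and log2 TPM to 0.35, -0.27 and 0.10.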
